A study of Mus musculus with 6 samples.

Results

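Cholesterol efflux and liver X receptor (LXR) genes were described across the cell types of mouse livers in a model of colorectal cancer metastasis. The 6 genes were taken by symbol from the 31253 features of the deposited count matrices: Nr1h3, Abca1, Abcg1, Apoe, Pltp and Mylip. Single liver cells had been profiled on BD Rhapsody, where transcripts are counted by unique molecular identifiers (UMIs). The 6 libraries were 2 from control livers, 2 from the stage labelled pre-metastatic niches and 2 from livers with macro-metastases. The labels give the genotype field as ctrl for control livers and as an orthotopic mouse model of colorectal cancer for the other libraries. All 6 carry the cell line CT26-GFP, colon carcinoma cells of the mouse with a fluorescent reporter, and no strain, age or time is given. UMIs of each gene were summed per library over cells gated by markers as Kupffer cells without endothelial transcripts, other macrophages, neutrophils and endothelial cells. Levels are counts per 1000000 UMIs (CPM) of those sums. The labels do not say whether replicates came from different mice, so the p-values reflect only how far these libraries differ among themselves, which may be technical.

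LXRα, the product of Nr1h3, is a nuclear receptor that binds oxidised cholesterol and pairs with the retinoid X receptor on DNA. When cholesterol is in excess it switches on genes that move the sterol out of the cell. Abca1 encodes the transporter that loads cholesterol onto lipid-poor apolipoprotein A-I, and Abcg1 the transporter that loads it onto mature high-density lipoprotein. Apoe encodes apolipoprotein E, a carrier made by hepatocytes and macrophages, and Pltp the phospholipid transfer protein that remodels high-density lipoprotein. Mylip encodes the ubiquitin ligase also known as IDOL, which marks the low-density lipoprotein receptor for degradation. Kupffer cells, the macrophages resident in liver sinusoids, depend on LXRα for their identity.

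The gene models lie, on GRCm38 (mm10), at chr4:53030787-53159895 for Abca1, chr17:31057675-31117988 for Abcg1, chr7:19696109-19699188 for Apoe, chr2:91184061-91202834 for Nr1h3, chr2:164839518-164857711 for Pltp and chr13:45389742-45412022 for Mylip. All are protein-coding. Over the last 500 bases of a chosen transcript per gene, none shares a 31-base stretch with the same part of another gene. Whole transcripts were not compared. Nr1h3 overlaps Gm13783 on its own strand and Gm23390 on the other, and Abcg1 overlaps Gm25447 on its own strand. Whether counting used the strand is not given in the sources used here. Pltp, on the minus strand, shares the last 1515 bases of its gene model (chr2:164839518-164841032) with the end of Ctsa, the gene of the lysosomal protease cathepsin A, on the plus strand. Reads from these genes cannot be told apart there if counting ignored strand, so Ctsa is given beside Pltp.

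Of the 6 genes, 5 have a RefSeq promoter on GRCm38.p6, a window of 250 bases before to 50 after a start. The LXR response element, a direct repeat of AGGTCA with any 4 bases between the copies, was searched on both strands. With up to 2 of its 12 defined letters different no promoter of the 6 genes matched, against 3.02% of 32851 promoters. The search was then widened to 3 letters, which found 1 match, in Abca1, while 21.9% of all promoters matched. The match is a description of letters, and binding was not tested. Because the only match lay in Abca1, the 120 bases before its start are shown (chr4:53159896-53160015, minus strand, RefSeq). The match, at positions -67 to -52, is in capitals and reads on the opposite strand.
Abca1: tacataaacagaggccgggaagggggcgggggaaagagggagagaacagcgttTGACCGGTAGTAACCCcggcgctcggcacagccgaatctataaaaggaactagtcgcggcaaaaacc

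The gates held 3551 Kupffer cells, 1124 macrophages, 9606 neutrophils and 16045 endothelial cells. Control libraries gave the fewest myeloid cells, with 118 and 105 Kupffer cells, 20 and 22 macrophages, and 110 and 212 neutrophils. Barcodes with Kupffer markers and endothelial transcripts were left out of the Kupffer gate. They numbered at least 525 per control, 948 per pre-metastatic and 626 per macro-metastatic library, against at least 105, 315 and 1271 kept. The gate thus kept a smaller part of control than of macro-metastatic Kupffer barcodes. Median UMIs per gated Kupffer cell ran from 6797 in control replicate 2 to 15702 in macro-metastatic replicate 1. A gate is a range of marker levels: 12.9% of gated macrophages lay just above the marker minimum, against at most 2.06% in the other gates. In every library the Kupffer gate held all 6 of its markers, with Clec4f at 2030 to 5756 CPM. Kupffer markers summed to 41.8 to 49.7 CPM in endothelial cells, 14.8 to 31 in neutrophils and 28.5 to 31 in B cells of control libraries. In macro-metastatic libraries they summed to 181 to 197, 248 to 259 and 208 to 231 CPM. In gated Kupffer cells the same sum was 9235 to 9595 CPM in control and 11472 to 11665 in macro-metastatic libraries. The part of these transcripts in the results below was not tested, and the same genes are therefore also given in gated B and T cells. Of 64824 distinct barcodes, 2082 occurred in more than 1 library.

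Kupffer cells held 5 of the 6 genes at the highest level among the 4 gated types, and endothelial cells held Mylip. In Kupffer cells Nr1h3 was at 269 ± 64.9 CPM (SD, n = 6 libraries), against 98.3 ± 55.0 in macrophages, 6.42 ± 2.27 in neutrophils and 5.61 ± 1.77 in endothelial cells. The last pair of neighbours did not differ beyond their spread, and B cells held 2.94 ± 1.77 CPM. Gated hepatocytes, at 99.9 ± 17.4 CPM over 5 libraries, lay within the spread of macrophages. Abca1 was at 501 ± 97.3 CPM in Kupffer cells, 217 ± 130 in macrophages, 133 ± 122 in endothelial cells and 37.0 ± 28.1 in neutrophils. B cells held Abca1 at 201 ± 48.9 CPM, within the spread of macrophages. Mylip stood at 938 ± 363 CPM in endothelial cells and 267 ± 48.0 in Kupffer cells.

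Each Kupffer level was compared with the other types within the same libraries. All 6 genes were higher in Kupffer cells than in macrophages, by log2 fold changes of 0.75 (Pltp) to 1.68 (Nr1h3), in a comparison where 19.0% of genes were called. All 6 were also higher than in neutrophils, from 1.40 for Mylip to 5.07 for Nr1h3, where 73.5% of genes were called. Against endothelial cells (57.8% called) 5 were higher, from 1.22 for Abcg1 to 5.67 for Nr1h3. Mylip went the other way, at -1.69 (SE 0.193, edgeR adjusted p = 3.09e-08). The difference of Apoe between Kupffer cells and macrophages, 0.77 (SE 0.247, adjusted p = 0.0278), was not called without pre-metastatic replicate 1 (adjusted p = 0.140), without macro-metastatic replicate 2 (0.0853) or with a stricter gate (0.0957).

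**Figure D1:**
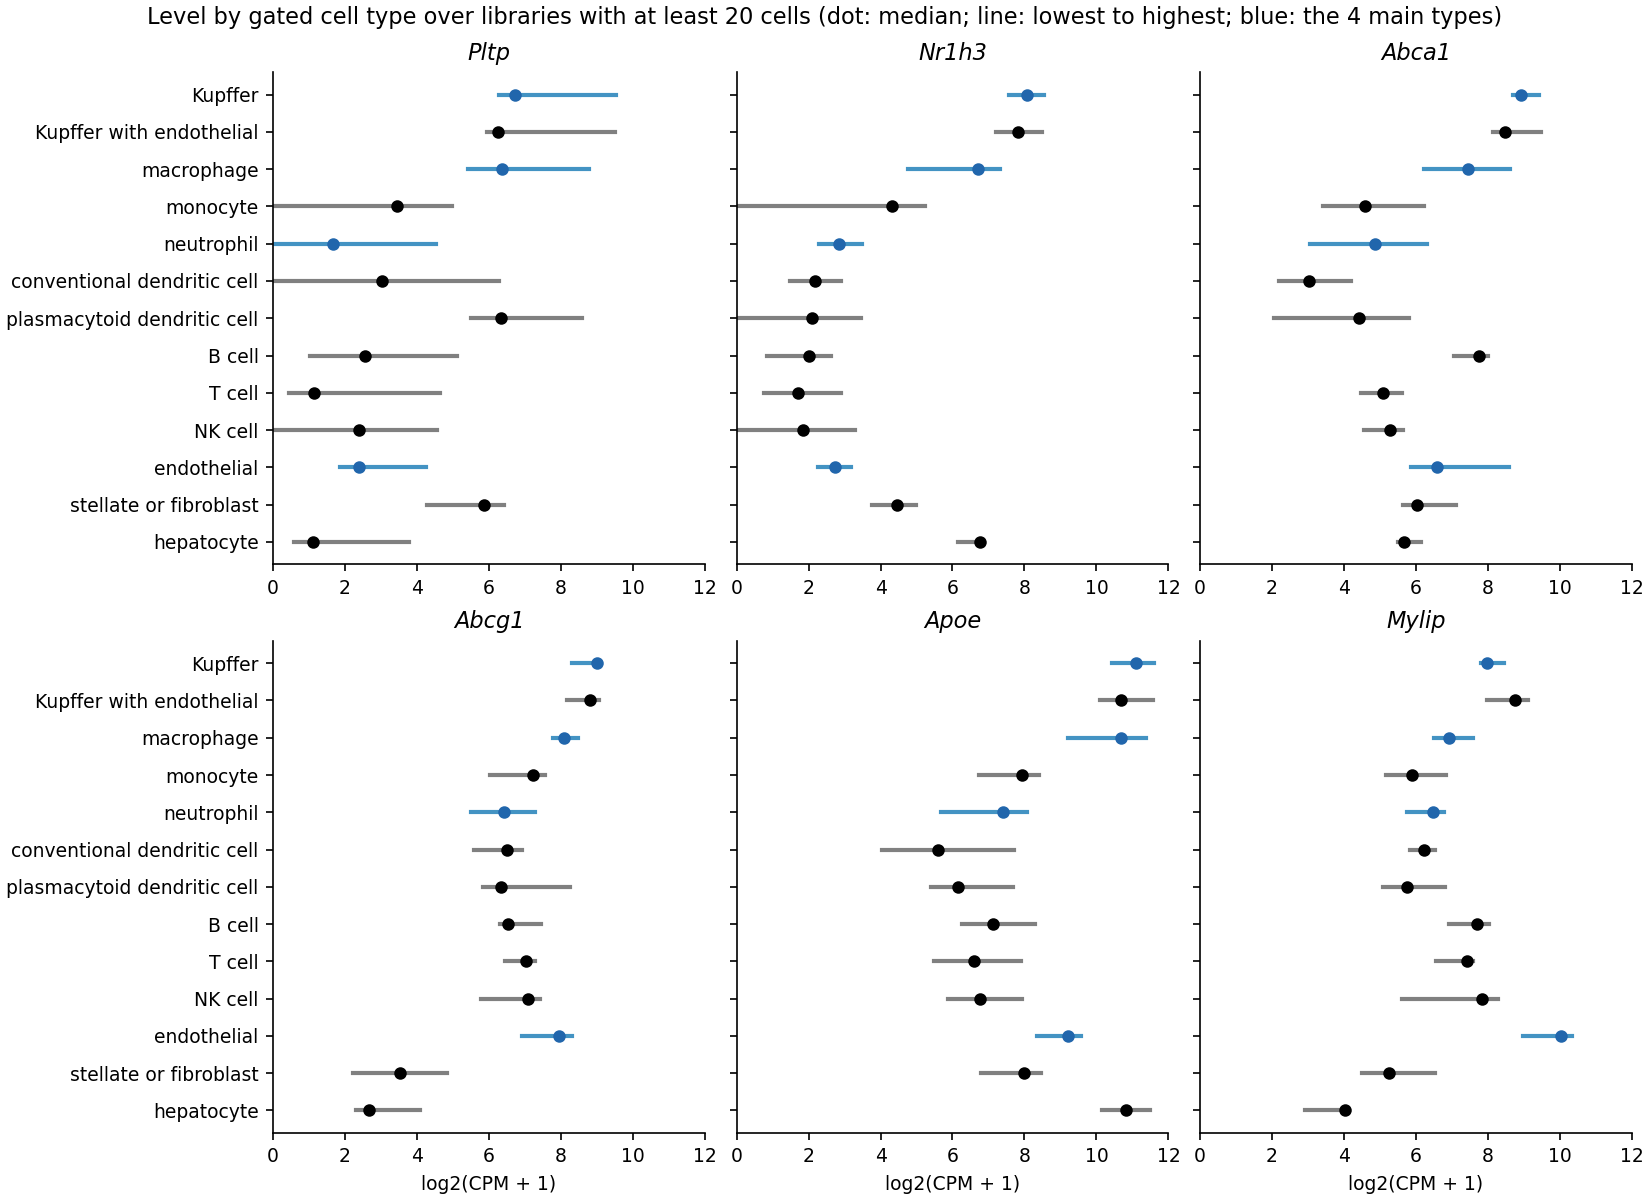
Level of each gene as log2(CPM + 1) in 13 gated cell types, with the median (dot) and the lowest and highest library (line) over libraries with at least 20 cells; blue marks the 4 main types. Nr1h3 stands highest in Kupffer cells at 269 CPM on average, and Mylip in endothelial cells at 938 CPM.

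Macro-metastatic and control livers differed in 2 of the 6 genes in Kupffer cells, 2 in macrophages, 2 in neutrophils and 5 in endothelial cells. Among all genes tested, 13.6% were called in Kupffer cells, 2.95% in macrophages, 6.5% in neutrophils and 24% in endothelial cells, by edgeR's quasi-likelihood test with Benjamini-Hochberg adjustment. Abca1 was higher in macrophages, neutrophils and endothelial cells, Abcg1 lower in neutrophils and endothelial cells, and Mylip lower in endothelial cells. Pltp was higher in Kupffer cells, macrophages and endothelial cells, and Nr1h3 in Kupffer cells and endothelial cells. Apoe was called in none of the 4 types. In B and T cells 4 of 5 and 5 of 6 of these genes were called, where 18% and 28.1% of genes were. Against pre-metastatic livers 2 genes were called in Kupffer cells, 2 in macrophages, 2 in neutrophils and 3 in endothelial cells, where 18.8%, 6.94%, 5.12% and 13.6% of genes were called. With a term for GC content and length of the transcript, the share of calls that were higher went from 72.4% to 38.8% in Kupffer cells, 80.4% to 32.4% in macrophages, 51.2% to 9.15% in neutrophils, and 63.3% to 54.0% in endothelial cells. The term moved the median log2 fold change of all genes from 0.01 to -0.18, 0.02 to -0.35 and 0.19 to -0.47 in the first 3 types. The last 500 transcript bases hold 56.4% GC in Pltp, 55% in Nr1h3, 52.4% in Apoe, 47.2% in Abcg1, 36.6% in Mylip and 33.4% in Abca1, against a median of 44.4% over all features.

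**Figure D2:**
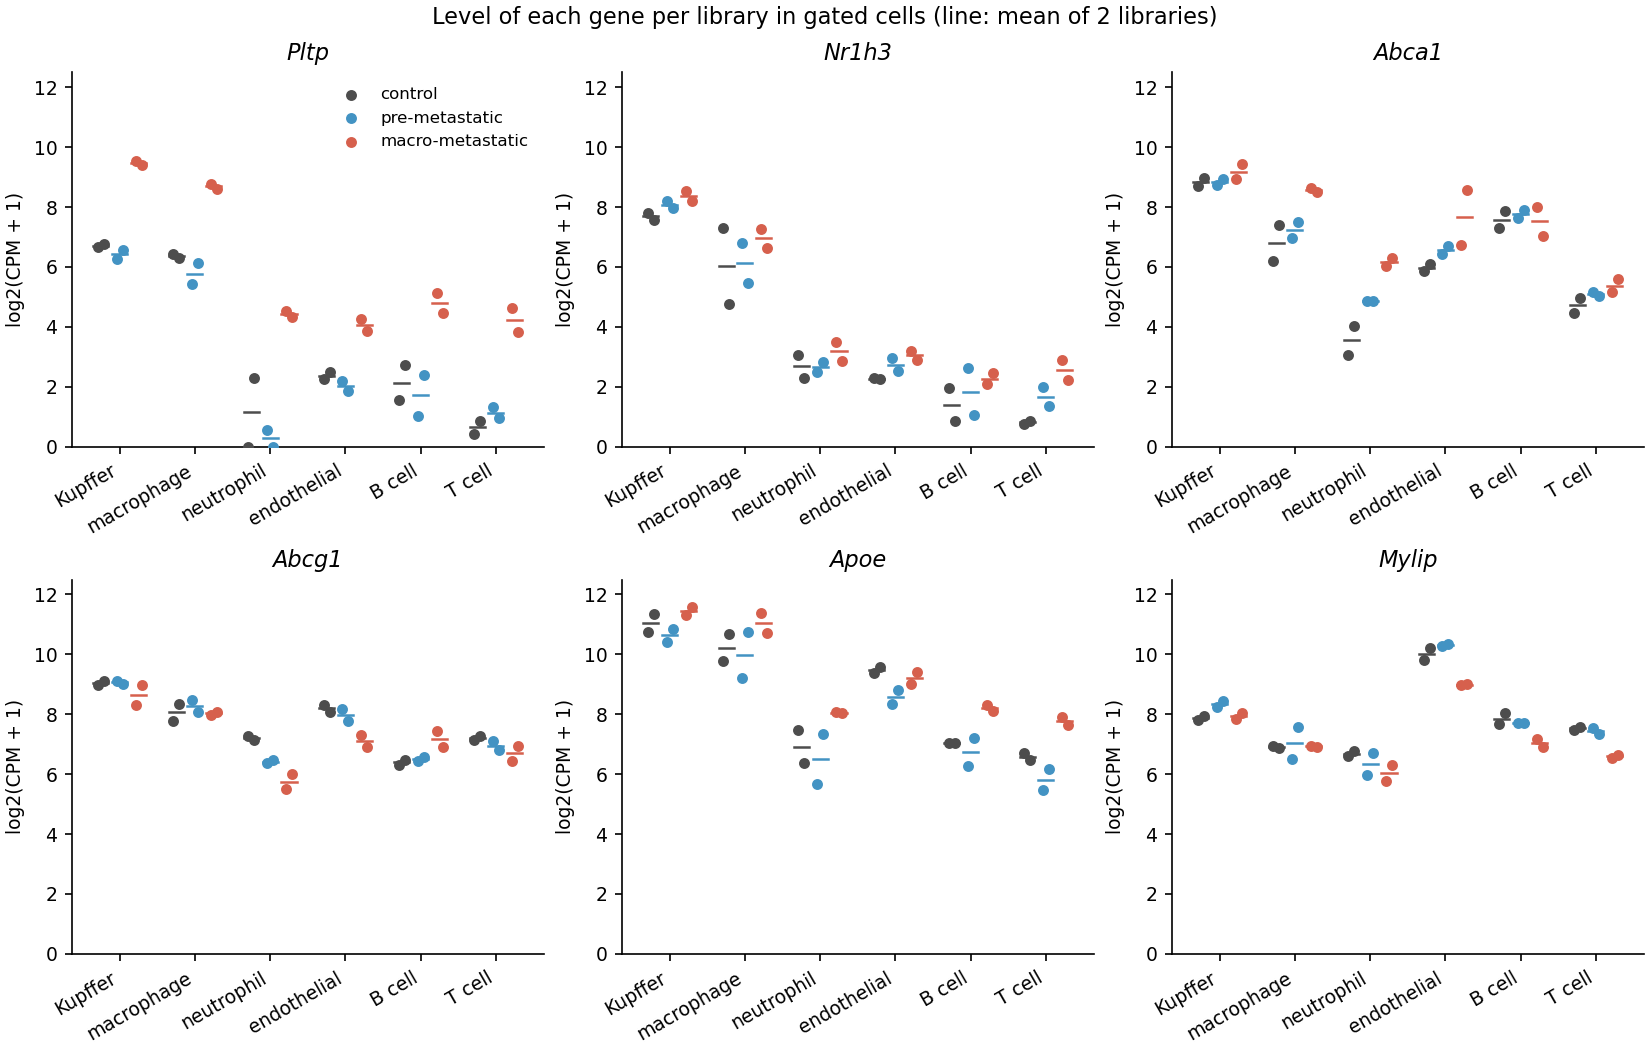
Level of each gene as log2(CPM + 1) per library in the 4 gated types and in B and T cells (points: libraries; short lines: means of 2). Macro-metastatic libraries lie above the others for Pltp in every type drawn, and below the others for Abcg1 in neutrophils and endothelial cells.

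Nr1h3, the receptor, was at 222 and 189 CPM in control, 293 and 247 in pre-metastatic, against 374 and 290 in macro-metastatic Kupffer cells. Both macro-metastatic libraries lay above both controls, but macro-metastatic replicate 2 lay below pre-metastatic replicate 1. The log2 fold change against control was 0.85 (SE 0.197, adjusted p = 0.0238). With the term for GC content and length, where the median of all genes was -0.18, it was -0.12 (adjusted p = 0.737). Its direction thus depends on that term. It was also not called without control replicate 1 (0.0976), control replicate 2 (0.139) or macro-metastatic replicate 1 (0.0602). In cells with 0 endothelial UMIs, a gate left with 17 and 14 control cells, it was -0.48 (adjusted p = 0.748). In endothelial cells Nr1h3 was at 3.85 and 3.76 CPM in control and 8.10 and 6.51 in macro-metastatic libraries, with a log2 fold change of 1.12 (SE 0.274, adjusted p = 0.0236). That call was lost with the GC and length term (0.46, adjusted p = 0.265) and without either control library (0.117 and 0.137). T cells also rose, from 0.695 and 0.811 CPM to 6.41 and 3.69 (log2 fold change 2.64, adjusted p = 0.0117), on 7 UMIs in control and 24 in macro-metastatic libraries. In macrophages the libraries of the groups overlapped, at 158 and 26.1 CPM in control and 155 and 98.2 in macro-metastatic livers.

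Abca1, the transporter to lipid-poor particles, was at 7.39 and 15.5 CPM in neutrophils of control livers, 28.2 and 28.2 in pre-metastatic livers, against 64.5 and 78.2 in macro-metastatic livers. The 3 groups did not overlap. The control values rest on 1 and 4 UMIs, the macro-metastatic values on 664 and 558. Against control the log2 fold change was 2.57 (SE 0.484, adjusted p = 0.0173), and against pre-metastatic livers 1.36 (SE 0.309, adjusted p = 0.0370). The former was 2.56 (adjusted p = 0.00945) with the GC and length term. It was not called without control replicate 1 (adjusted p = 0.117) or control replicate 2 (0.131), and the latter was lost when any one of the 6 libraries was left out (0.0568 to 0.144) or under 10% mitochondrial UMIs were required (0.0733). Over all genes in neutrophils the median log2 fold change against control was 0.19, and -0.47 with the GC and length term.

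In macrophages Abca1 stood at 73.0 and 169 CPM in control, 125 and 179 in pre-metastatic, against 393 and 362 in macro-metastatic livers. Both macro-metastatic libraries exceeded all others. Abca1 differed on the log2 scale by 1.82 (SE 0.397, adjusted p = 0.0462) against control and 1.49 (SE 0.321, adjusted p = 0.0288) against pre-metastatic livers. The first lay close to the threshold: it was not called when any one of the 6 libraries was left out (adjusted p 0.0664 to 0.189), with DESeq2's size factors (0.0521), with monocytes included (0.0517) or with a stricter gate (0.0818). The second was lost without either pre-metastatic or either macro-metastatic library (0.108 to 0.221).

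Endothelial cells held Abca1 at 56.6 and 67.7 CPM in control, 84.7 and 104 in pre-metastatic, against 106 and 380 in macro-metastatic libraries. Macro-metastatic replicate 2 stood far above the other 5 libraries, and replicate 1 lay beside pre-metastatic replicate 2. The log2 fold change against control was 2.17 (SE 0.520, adjusted p = 0.0218), and 0.94 without macro-metastatic replicate 2, still called (adjusted p = 0.00614). Without control replicate 1 or 2 it was not called (adjusted p = 0.149 and 0.128). In gated Kupffer cells, where Abca1 was highest, values overlapped: 413 and 505 CPM in control, 430 and 485 in pre-metastatic, against 487 and 685 in macro-metastatic libraries (log2 fold change against control 0.51, SE 0.178, adjusted p = 0.0894). The Kupffer barcodes with endothelial transcripts held Abca1 at means of 303 CPM in control, 358 in pre-metastatic and 604 in macro-metastatic libraries. B cells held 156 and 233 CPM in control and 254 and 131 in macro-metastatic libraries, with a log2 fold change of -0.02 (SE 0.245). T cells rose by 0.76 (SE 0.231, adjusted p = 0.0327).

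Abcg1, the transporter to mature high-density lipoprotein, moved opposite to Abca1 in neutrophils and endothelial cells. In neutrophils it was at 155 and 139 CPM in control, 81.0 and 87.5 in pre-metastatic, against 44.0 and 62.9 in macro-metastatic livers, with no overlap between groups. The median log2 fold change of all genes in neutrophils against control was 0.19, and -0.47 with the GC and length term. That of Abcg1 was -1.38 (SE 0.299, adjusted p = 0.0285), and -1.93 (adjusted p = 0.00629) with that term. It was not called without control replicate 1 (adjusted p = 0.153), control replicate 2 (0.206) or macro-metastatic replicate 1 (0.0910). In endothelial cells it was at 317 and 271 CPM in control, 286 and 221 in pre-metastatic, against 159 and 120 in macro-metastatic livers. Both macro-metastatic libraries lay below all others. The log2 fold change was -0.90 (SE 0.186, adjusted p = 0.0130) against control, and -0.68 (SE 0.185, adjusted p = 0.0497) against pre-metastatic livers. The former was not called without control replicate 1 (0.119) or 2 (0.0509), and the latter was lost in 9 of 15 alternatives. In Kupffer cells the groups overlapped, at 508 and 549 CPM in control and 317 and 506 in macro-metastatic libraries. B cells went the other way, from 78.4 and 88.7 CPM to 174 and 118 (log2 fold change 0.82, SE 0.210, adjusted p = 0.00963).

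**Figure D3:**
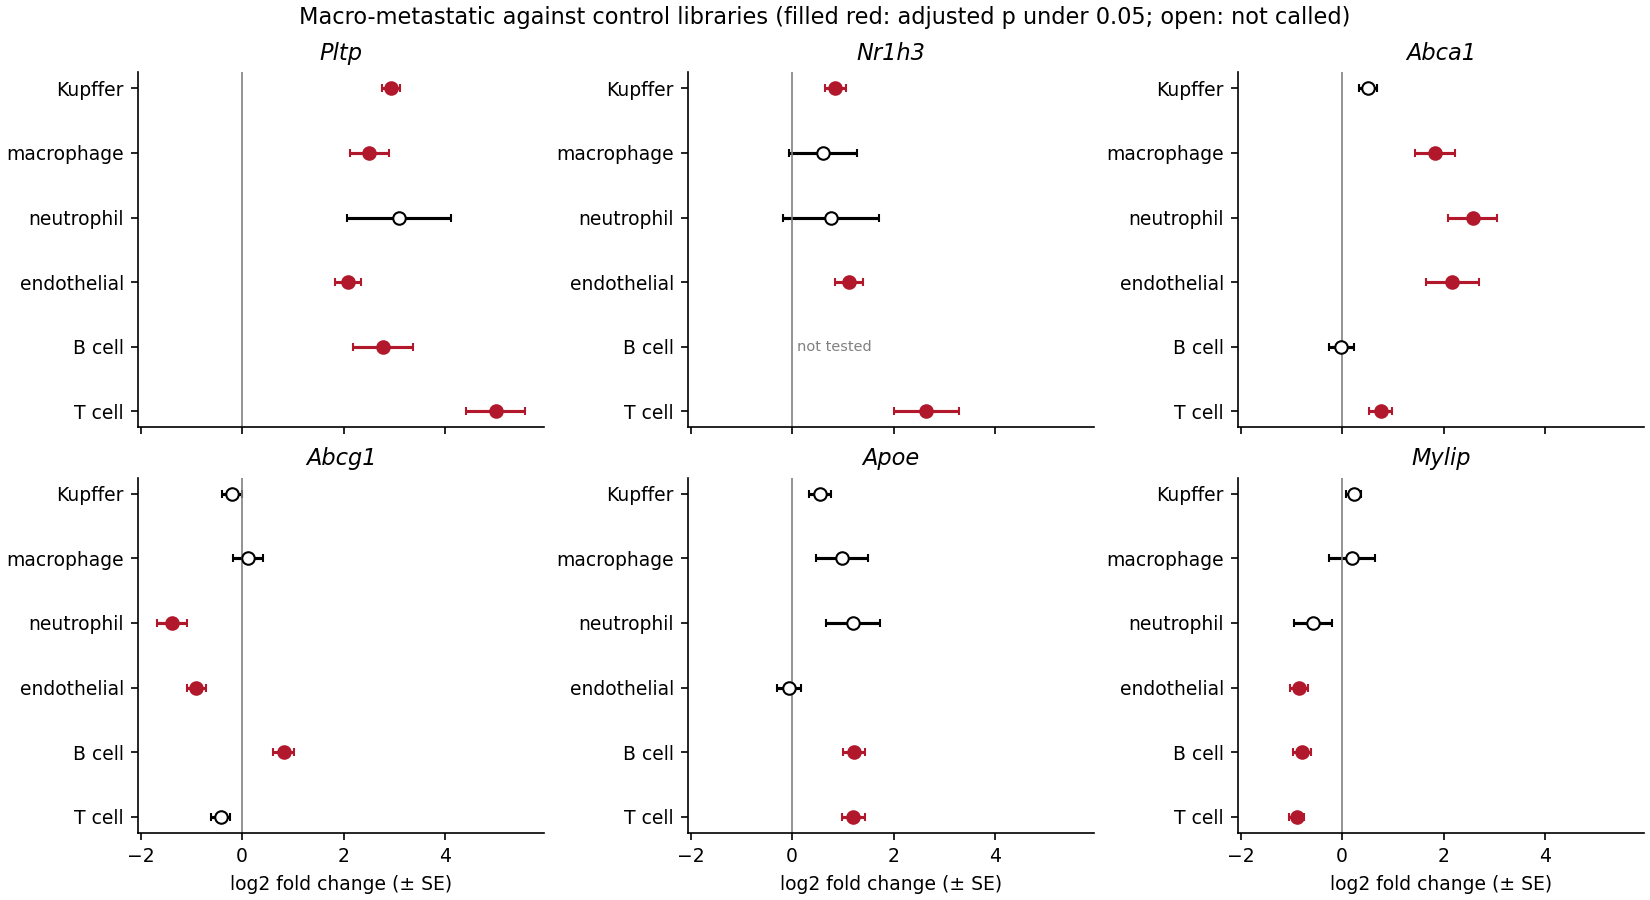
Log2 fold change (± SE) of each gene in macro-metastatic against control libraries, in the 4 gated types and in B and T cells; filled points passed edgeR's adjusted p of 0.05. Abca1 is 2.57 in neutrophils and -0.02 in B cells, while Pltp is 2.93 in Kupffer cells and 2.78 in B cells.

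Apoe, the lipoprotein carrier, was at 1726 and 2622 CPM in control, 1374 and 1851 in pre-metastatic, against 2568 and 3078 in macro-metastatic Kupffer cells. Control replicate 2 lay between the macro-metastatic libraries, and the log2 fold change against control was 0.54 (SE 0.213, adjusted p = 0.123). Pre-metastatic replicate 1 was the lowest library, and control replicate 1 lay below pre-metastatic replicate 2. Against pre-metastatic livers the change was 0.97 (SE 0.214, adjusted p = 0.0150). That call was lost with the GC and length term (0.27, adjusted p = 0.374), without pre-metastatic replicate 1 (0.135), and in cells with 0 endothelial UMIs (0.383). In endothelial cells the values were 662 and 764 CPM in control, 324 and 450 in pre-metastatic, against 518 and 674 in macro-metastatic libraries, with a change against control of -0.07 (SE 0.235). B cells rose from 130 and 131 CPM to 313 and 275 (log2 fold change 1.22, SE 0.216, adjusted p = 0.000502) and T cells by 1.21 (SE 0.222, adjusted p = 0.00300).

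Pltp, the remodeller of high-density lipoprotein, showed the largest change of the 6 genes in Kupffer cells. Its level was 101 and 107 CPM in control, 76.6 and 92.9 in pre-metastatic, against 741 and 673 in macro-metastatic Kupffer cells. Macro-metastatic libraries stood far above the other 4. Pltp rose on the log2 scale by 2.93 (SE 0.173, adjusted p = 9.89e-05) against control and 3.23 (SE 0.167, adjusted p = 3.83e-05) against pre-metastatic livers. The first call was kept under all 17 alternatives, between 1.87 with the GC and length term and 3.44, and the second was lost in cells with 0 endothelial UMIs (adjusted p = 0.0671). Macrophages held 85.2 and 78.2 CPM in control, 41.7 and 69.4 in pre-metastatic, against 438 and 391 in macro-metastatic livers, with a log2 fold change against control of 2.51 (SE 0.380, adjusted p = 0.0200). That call was lost with the GC and length term (1.19, adjusted p = 0.103) and without control replicate 1 (0.0599), control replicate 2 (0.0734) or macro-metastatic replicate 1 (0.0714).

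Pltp was lower in endothelial cells and neutrophils. Endothelial cells rose from 3.75 and 4.62 CPM in control to 18 and 13.6 in macro-metastatic libraries (log2 fold change 2.09, SE 0.256, adjusted p = 0.00168, or 1.38 with the GC and length term). Neutrophils held 1 UMI in the control and 366 in the macro-metastatic libraries, a ratio of CPM of 8.26 with an exact 95% counting interval of 1.47 to 327 (fit: adjusted p = 0.105). Against the pre-metastatic libraries, also with 1 UMI, the ratio was 66.3 (11.8 to 2624), and the fit called it (adjusted p = 0.00608). B cells rose from 1.94 and 5.54 CPM (2 and 7 UMIs) to 33.8 and 21.1 (log2 fold change 2.78, SE 0.589, adjusted p = 0.00241). T cells rose from 0.348 and 0.811 CPM (2 and 3 UMIs) to 23.7 and 13.2 (log2 fold change 5.0, SE 0.580, adjusted p = 0.000222). With so few control UMIs the size of these B and T cell changes is uncertain. In macro-metastatic libraries Pltp had 63.5 and 58.7 UMIs per 1000 UMIs of the Kupffer markers in Kupffer cells, 91.3 and 75.6 in endothelial cells, and 146 and 101 in B cells. Plasmacytoid dendritic cells held 82.3 and 72.0 CPM in control and 305 and 386 in macro-metastatic libraries.

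Ctsa, which overlaps Pltp at the gene end, also rose. It was at 93.8 and 131 CPM in control, 85.2 and 102 in pre-metastatic, against 695 and 829 in macro-metastatic Kupffer cells, a log2 fold change of 2.93 (SE 0.193, adjusted p = 0.000155). It changed by 3.23 in macrophages, 2.93 in neutrophils, 2.49 in endothelial cells, 2.92 in B cells and 2.78 in T cells, all called. Over the 24 sums of the 4 types, Pearson's r between the log2(CPM + 1) of these genes was 0.91, as a description of points that share libraries and depth. Their levels were not in 1 ratio across types. T cells of control livers held Ctsa at 11.8 and 15.7 CPM and Pltp at 0.348 and 0.811, and pre-metastatic neutrophils held Ctsa at 15.7 and 22.1 and Pltp at 0.463 and 0. Macro-metastatic neutrophils held Ctsa at 130 and 127 CPM and Pltp at 22.3 and 19.2, while in macro-metastatic Kupffer cells Pltp was about as high as Ctsa. What share of the reads over the common bases was counted for the other gene was not tested.

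Mylip, the ubiquitin ligase, was at 895 and 1183 CPM in control, 1244 and 1297 in pre-metastatic, against 501 and 510 in macro-metastatic endothelial cells. Both macro-metastatic libraries lay below all others. Mylip had a log2 fold change of -0.85 (SE 0.178, adjusted p = 0.0134) against control and -1.15 (SE 0.179, adjusted p = 0.00692) against pre-metastatic livers. The second call was kept in all 15 alternatives, while the first was not called without control replicate 1 (0.0503) or 2 (0.112). B cells fell by 0.79 (SE 0.182, adjusted p = 0.00441) and T cells by 0.90 (SE 0.145, adjusted p = 0.00151) on the log2 scale. Gated Kupffer cells did not follow: they held 223 and 244 CPM in control, 300 and 348 in pre-metastatic, against 229 and 261 in macro-metastatic libraries (log2 fold change against control 0.23, SE 0.147, adjusted p = 0.319). Kupffer barcodes with endothelial transcripts, left out of the gate, held Mylip at means of 429 CPM in control, 511 in pre-metastatic and 259 in macro-metastatic libraries. The part of endothelial transcripts in these means was not tested.

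Whether a change differed between cell types was tested as an interaction within the same libraries. Relative to B cells, the change of Abca1 against control was larger by 2.21 (SE 0.396, adjusted p = 7.30e-06) in macrophages and by 2.67 (SE 0.649, adjusted p = 0.0180) in neutrophils, and by 1.87 (SE 0.539, adjusted p = 0.0603) in endothelial cells. In the macrophage test the median over all genes was 0.35, or 0.07 with DESeq2's size factors. Control macrophages, 20 and 22 cells, held 19 UMIs of Abca1. The p-value of that test is about what a normal curve gives, so the fit took the spread as nearly known. Within macrophages alone edgeR gave the change of Abca1 an adjusted p of 0.0462. The change of Abcg1 was lower by 2.21 (SE 0.416, adjusted p = 0.00153) in neutrophils and by 1.8 (SE 0.244, adjusted p = 0.000147) in endothelial cells. The change of Apoe was lower by 1.37 (SE 0.249, adjusted p = 0.00237) in endothelial cells. Apoe itself changed by -0.07 in endothelial cells, while it rose by 1.22 in B cells. The change of Mylip was higher by 1.02 (SE 0.204, adjusted p = 0.0133) in Kupffer cells relative to B cells and by 1.10 (SE 0.184, adjusted p = 0.00402) relative to endothelial cells. Mylip itself changed by 0.23 in Kupffer cells, not called, and by -0.79 in B cells and -0.85 in endothelial cells. Of all genes, 2.86% were called in Kupffer cells, 2.87% in macrophages, 2.47% in neutrophils and 3.94% in endothelial cells relative to B cells, and 3.25% in Kupffer relative to endothelial cells. Pltp did not pass in any of them: its difference from B cells was 0.14 (SE 0.591) in Kupffer cells and 0.42 (SE 1.68) in neutrophils, and its difference between Kupffer and endothelial cells 0.87 (SE 0.238, adjusted p = 0.0702). Both neutrophil calls were lost without control replicate 1 or 2, and those of Mylip and Apoe without control replicate 2. The Mylip call relative to B cells was also lost without macro-metastatic replicate 2 (adjusted p = 0.122).

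Between pre-metastatic and control livers none of the 6 genes was called by edgeR in any of the 4 types. With so few libraries, a gene not called may still have changed. In that comparison 0% of genes were called in Kupffer cells, macrophages and neutrophils, and 1.27% in endothelial cells. At an unadjusted p under 0.05 there was 1 of the 6 genes in Kupffer cells, 0 in macrophages, 2 in neutrophils and 1 in endothelial cells, and DESeq2 called 0, 0, 0 and 1. Those 4 values were 0.47 (SE 0.148) for Mylip in Kupffer cells, 1.21 (SE 0.531) for Abca1 and -0.75 (SE 0.302) for Abcg1 in neutrophils, and -0.87 (SE 0.237) for Apoe in endothelial cells. Their adjusted p by edgeR was 0.488, 0.704, 0.7 and 0.177. Over all genes tested, 854 of 10421, 362 of 5518, 587 of 8321 and 1251 of 12861 had an unadjusted p under 0.05 in the 4 types. DESeq2, run on the same genes, called 49, 7, 15 and 364.

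The share of cells with a UMI was compared after thinning each cell to 1000 UMIs, leaving out shallower cells. Pltp was found in 13.9% and 12% of control, 8.52% and 9.70% of pre-metastatic, and 49.4% and 48.2% of macro-metastatic Kupffer cells, against 3.39% and 2.15% of macro-metastatic B cells. Abca1 was found in 1.33% and 2.61% of control, 2.76% and 2.40% of pre-metastatic, and 5.97% and 6.78% of macro-metastatic neutrophils. The macro-metastatic libraries were the highest of the 6. In endothelial cells Abca1 was found in 9.95% of cells in macro-metastatic replicate 1 and 31.1% in replicate 2. Abcg1 was found in 12% and 17.6% of control and 4.79% and 6.24% of macro-metastatic neutrophils. In the thinned neutrophils 75 and 153 control cells remained, and 35 and 59 had been left out. Without thinning Pltp was found in 52.5% and 46.7% of control and 96.8% and 93.7% of macro-metastatic Kupffer cells, and Abca1 in 0.909% and 1.89% of control and 14.4% and 12.2% of macro-metastatic neutrophils. Unthinned Abcg1 was found in 13.6% and 15.6% of control and 10.4% and 10.9% of macro-metastatic neutrophils, and unthinned Abca1 in 44.3% and 75.8% of macro-metastatic endothelial cells. Median depth before thinning was 1133 and 1163 UMIs in control and 2186 and 1868 in macro-metastatic neutrophils, and 2191 and 2287 in macro-metastatic B cells.

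**Figure D4:**
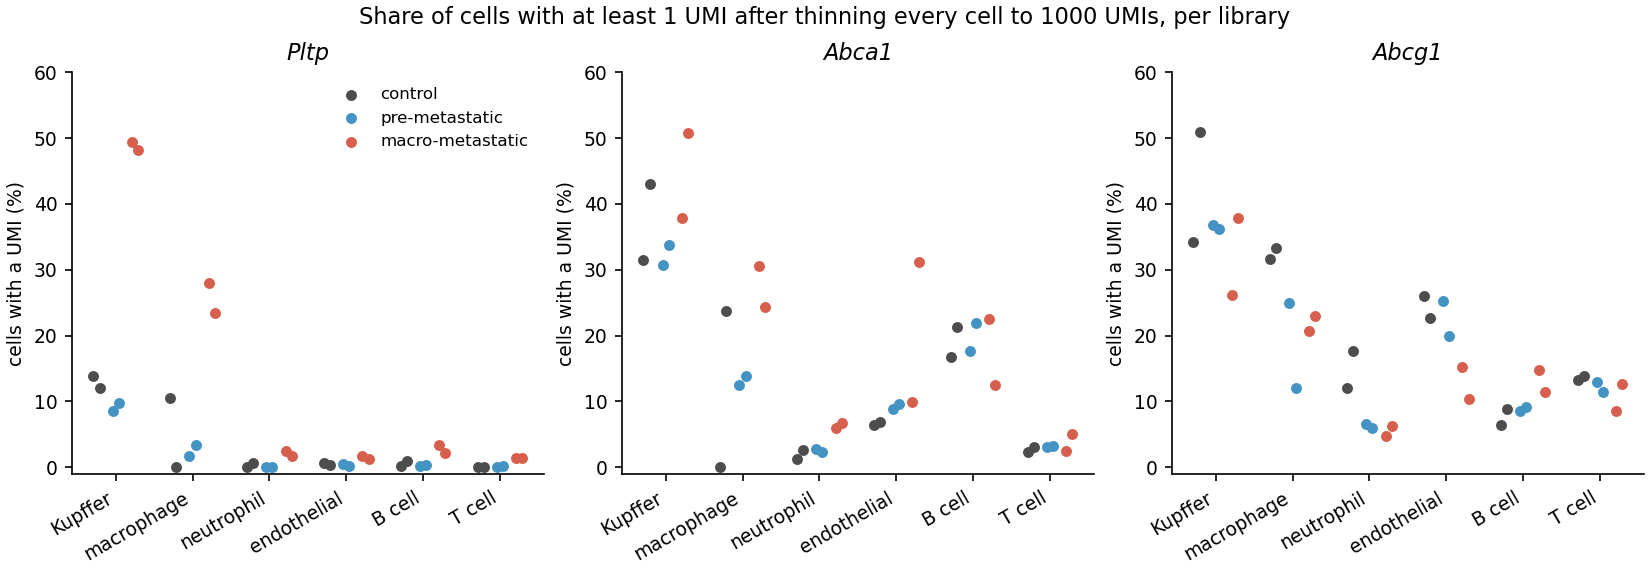
Percent of cells with at least 1 UMI of Pltp, Abca1 or Abcg1 after thinning each cell to 1000 UMIs, per library, in the 4 gated types and in B and T cells. Pltp is found in 49.4% and 48.2% of macro-metastatic Kupffer cells and in 13.9% and 12% of control Kupffer cells.

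Other genes of cholesterol handling were counted in 4 lists. The lists were chosen with earlier results of these data known, so their counts are descriptions beside the shares over all genes. Of 23 further LXR targets and partners, 19 were tested in Kupffer cells, and 8 were higher and 0 lower in macro-metastatic than in control livers, where 9.84% of all genes were called higher and 3.74% lower. The list's median log2 fold change was 0.94, against 0.01 for all genes. Arl4c, a small GTPase and LXR target, rose from 164 and 179 CPM to 454 and 467 (log2 fold change 1.59, SE 0.167, adjusted p = 0.000774). Nrip1, a corepressor of nuclear receptors, rose from 77.5 and 100 to 261 and 204 CPM (1.57, SE 0.203, adjusted p = 0.00176). Apoc1, an apolipoprotein gene next to Apoe, rose from 326 and 322 to 617 and 487 CPM (0.94, SE 0.170, adjusted p = 0.00908). With the GC and length term 1430 of 10421 genes were called, 38.8% of them higher, and the median of all genes was -0.18. Of the 19 on the list, 4 were then higher (Arl4c, Lpcat3, Fasn and Nrip1), 1 was lower (Ncor1) and the median was 0.20. In B cells 4 of 15 were higher, Arl4c and Nrip1 among them, where 11.2% of all genes were. In macrophages 1 of 11 was higher (Arl4c) and 0 lower, in neutrophils 1 of 17 higher (Cd5l) and 1 lower (Ncor1), and in endothelial cells 4 of 20 higher and 2 lower. Of all genes, 2.37% were higher and 0.58% lower in macrophages, 3.33% and 3.17% in neutrophils, and 15.2% and 8.83% in endothelial cells, so the endothelial counts lay near the share over all genes.

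The second list held 24 genes of cholesterol synthesis. In Kupffer cells 1 of 21 tested was higher, Pmvk, at 2.04 and 0 CPM in control and 9.54 and 12.9 in macro-metastatic libraries, and the list's median was 0.24. In macrophages 0 of 11 was called, in neutrophils 1 of 18 was higher (Srebf2), and in endothelial cells 3 of 23 were higher and 2 lower. Of 8 uptake genes, 6 were tested in Kupffer cells and 2 were higher. Scarb1, the receptor for high-density lipoprotein, rose from 67.3 and 93.2 to 371 and 270 CPM (log2 fold change 2.19, SE 0.229, adjusted p = 0.000763), and also in endothelial cells by 2.14 (SE 0.236, adjusted p = 0.00111). In endothelial cells 3 of 6 uptake genes were higher, in macrophages 1 of 6 (Msr1, a scavenger receptor) and in neutrophils 0 of 7. These counts, like those of the other lists, stand beside the shares of all genes given above. The last list held 10 genes of lysosomal handling, esterification and oxidation of cholesterol. Of these, 0 of 8 were higher and 1 lower in Kupffer cells (Osbp), and 4 of 10 higher and 1 lower in endothelial cells. In macrophages 0 of 9 was called, and in neutrophils 1 of 9 was higher (Npc2, which carries cholesterol out of lysosomes). With the GC and length term 0 of the 21 synthesis genes and 1 of the 6 uptake genes (Scarb1) were called in Kupffer cells, and Arl4c in macrophages and Cd5l, Srebf2 and Npc2 in neutrophils were not called. With that term the Kupffer list of lysosomal handling, esterification and oxidation went from 1 to 3 lower (Cyp27a1, Soat1 and Osbp). Ebp and Stard3 were called lower in neutrophils, and the endothelial version of that list went from 4 to 2 higher (Soat2 and Ch25h). Over all genes with the term, 1430 of 10421 were called in Kupffer cells, 38.8% of them higher. In neutrophils 995 of 8321 were called, 9.15% of them higher, and in endothelial cells 2866 of 12861, 54.0% of them higher. In T cells of the same libraries, 4 of 7 uptake genes were higher, Scarb1 among them, where 16% of all genes were.

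**Figure D5:**
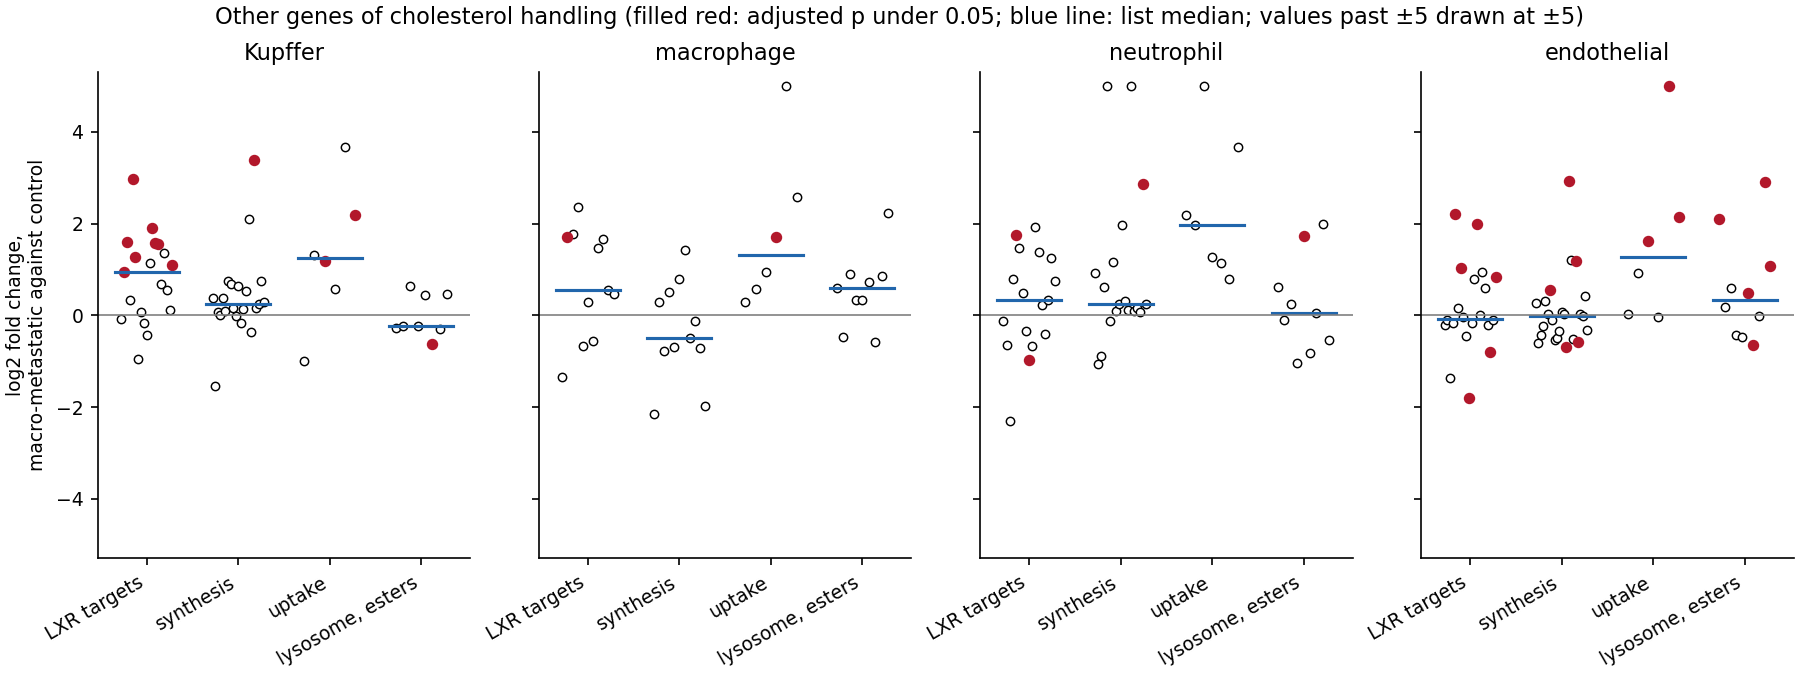
Log2 fold change of the other genes in 4 lists of cholesterol handling, macro-metastatic against control, by gated type; filled points were called, blue lines are list medians. In Kupffer cells 8 of 19 LXR targets and partners are called higher and the list's median is 0.94. With the GC and length term 4 are higher, 1 is lower and the median is 0.20, against -0.18 for all genes.

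The genes whose levels followed each gene most closely over the 24 sums of type and library were listed by Pearson's r of log2(CPM + 1), among 5961 genes with a mean of at least 20 CPM. Points share libraries and depth. They were Cndp2 (0.94), Fam234a (0.93) and H2-DMa (0.93) for Pltp, and Ly6e, Evl and Id2 (all 0.97) for Nr1h3. For Abca1 they were Ctsb (0.95), Sdc3 (0.92) and Grn (0.92), and for Apoe Grn (0.95), Sdc3 (0.92) and Tmem37 (0.92). Dnmt3a (0.95), Mfsd11 (0.92) and Asah1 (0.92) followed Abcg1. Selenop (0.95), Rfk (0.95) and Pecam1 (0.94), the last an endothelial adhesion molecule, followed Mylip.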

How the data were processed

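Per the submitters' processing notes, CASAVA 1.8, UMI-tools and the mm10 genome were used; no aligner, annotation or counting strand is given in the sources used here. Raw UMI counts per gene and barcode were deposited by the authors for each library. Barcodes with at least 300 genes and at most 25% mitochondrial UMIs were kept (66935, 9494 to 14051 per library, with 32979964 to 86545263 UMIs in them), and Scrublet doublets (1.71 to 2.76%) were left out. Cells were gated by summed UMIs of marker genes per 100000 UMIs (at least 320 for Kupffer cells, macrophages and endothelial cells, 640 for neutrophils), with Kupffer cells under 80 for endothelial markers. The 6 genes are no markers. The members and gene lists were chosen with earlier results of these data known. The other genes named come from 4 lists (up to 3 per list and comparison with the smallest adjusted p and a mean log2 CPM of at least 3, and Scarb1, Pmvk, Osbp and single called genes by count), and from the 3 genes most like each member.

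Counts were summed per library and type and tested with edgeR 4.0.16 (quasi-likelihood, TMM, filterByExpr, all 6 libraries in 1 fit, Benjamini-Hochberg over all genes tested, adjusted p under 0.05) in R 4.3.3. Comparisons of types had library as a block. Tests were checked on counts simulated at the depth of each type with a set spread. Of genes given a log2 change of 1, 14.3% were called in Kupffer cells, 9.68% in macrophages, 7.45% in neutrophils and 16.7% in endothelial cells. At a log2 change of 2 these shares were 72.4%, 65.2%, 49.5% and 96.0%. A gene not called may therefore still have changed. Alternatives were DESeq2 1.42.0, its size factors, no filter on low counts, a GC and length term, a replicate block, other gates and filters, and each library left out, where the lone library of a group is assumed to vary like the other groups. With 2 libraries against 2 an exact permutation test cannot reach 0.05, so none was made. Intervals cover counting error only.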

Additional observations from a re-analysis of the deposited data

Results flagged for a closer look

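For 4 of the 6 genes the change from control to macro-metastatic livers differed between gated cell types by a test of the difference itself (edgeR's quasi-likelihood interaction, Benjamini-Hochberg adjusted). Abca1 changed more than in B cells by 2.21 in macrophages and 2.67 in neutrophils on the log2 scale. For Abcg1 the difference from B cells was -2.21 in neutrophils and -1.8 in endothelial cells, and for Apoe it was -1.37 in endothelial cells. B cells themselves rose by 0.82 in Abcg1 and by 1.22 in Apoe, while endothelial Apoe changed by -0.07. The difference for Mylip was 1.02 in Kupffer cells relative to B cells and 1.10 relative to endothelial cells. Mylip itself was not called in Kupffer cells (0.23), while it was lower in B cells (-0.79) and endothelial cells (-0.85). Only the calls of Abca1 in macrophages and Abcg1 in endothelial cells were kept in all 10 alternatives. These alternatives did not include the GC and length term or the gate with all Kupffer cells.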

How the results depend on the processing

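Of the 45 called values, 45 were kept with no filter on low counts, 44 with doublets kept, 43 with DESeq2's size factors and 43 with a stricter gate; DESeq2 kept 20 of the 20 it was run on. The GC and length term kept 15 of 20 (4 lost, 1 reversed), and cells with 0 endothelial UMIs kept 1 of 4 (2 lost, 1 reversed). Leaving out control replicate 1 or 2 ended 13 and 16 calls, and leaving out another library 4 to 7. The direction reversed for Nr1h3 in Kupffer cells against control. Its log2 fold change was -0.12 with the GC and length term, where the median of all genes was -0.18. It was -0.12 with that term and the replicate block, and -0.48 in cells with 0 endothelial UMIs. The cause was not tested. The counts of called members below stand mostly without the number of all genes called under the same setting. A changed count may therefore reflect a shift over all genes. Macro-metastatic against control, all genes called went from 1415 to 1430 in Kupffer cells with the GC and length term. In macrophages they went from 163 to 142 with that term and to 154 with DESeq2's size factors. Between pre-metastatic and control endothelial cells edgeR called 163 and DESeq2 364.

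Of the 6 genes, the number called in macro-metastatic against control Kupffer cells (2) was 4 with no filter, 1 with the GC and length term with or without the block, 1 with 0 endothelial UMIs, 5 with all Kupffer cells, and 1 to 2 with a library left out. Against pre-metastatic Kupffer cells (2) it was 4 with no filter, 0 with 0 endothelial UMIs, 5 with all Kupffer cells, and 1 to 4 with a library left out. In macrophages against control (2) it was 1 with DESeq2's size factors, the GC and length term with or without the block, the stricter gate, or monocytes included, and 0 to 1 with a library left out. Against pre-metastatic macrophages (2) it was 4 with no filter and 0 to 2 with a library left out. In neutrophils it was 0 to 3 against control (2) and 1 to 2 against pre-metastatic livers (2) with a library left out, and 1 in the latter with under 10% mitochondrial UMIs. In endothelial cells it was 1 to 5 against control (5) and 2 to 5 against pre-metastatic livers (3) with a library left out, and 5 in the latter with no filter. Between pre-metastatic and control endothelial cells (0) it was 1 with DESeq2, 2 with no filter, and 0 to 1 with a library left out.

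Of the interactions, Kupffer relative to B cells (1) gave 3 with no filter and 0 to 2 with a library left out, macrophages relative to B cells (1) gave 2 with no filter or with doublets kept and 1 to 2, neutrophils (2) gave 0 to 2, endothelial cells (2) gave 1 to 3, and Kupffer relative to endothelial cells (1) gave 5 with no filter, 2 with the stricter gate and 0 to 4.

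Replicate numbers were not taken to pair the samples: each group has only 2, and deviations of same-numbered libraries correlated by -0.06 to 0.52. The replicate block kept 20 of 20 calls, and gave 4 called genes in Kupffer cells and 4 in neutrophils against pre-metastatic livers, 5 in endothelial cells, and 1 in pre-metastatic against control endothelial cells. With the GC and length term it gave 1 in pre-metastatic against control neutrophils and 1 in endothelial cells. The 20 and 22 macrophages of the control libraries limit precision there.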
